A study of Mus musculus with 8 samples.

Results

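The 10 genes described here encode proteins of the mechanotransduction apparatus of hair cells, the sensory cells of the inner ear, and were chosen by name: Tmc1, Tmc2, Tmie, Lhfpl5, Cdh23, Pcdh15, Cib2, Ush1c, Whrn and Clrn1. All 10 were found among the 47517 gene symbols of each count file, and all 10 were among the 21392 genes that passed the expression filter. RNA of whole inner ears was taken on postnatal day 14, giving 4 libraries of heterozygous mutants and 4 libraries of wild-type littermates. The mutants carry a frameshift in Thra that alters thyroid hormone receptor α1 (TRα1), a nuclear receptor for thyroid hormone, and the comparison asks which RNAs differ in carriers of that allele. The labels name no other allele and no treatment, give the tissue as inner ear where the series title says cochlea, and do not say whether a library is 1 animal, 1 ear or a pool. The p-values below therefore measure the spread between these libraries, part of which may be technical.

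Hair cells convert sound and head movement into current through ion channels at the tips of stereocilia. TMC1 and TMC2 form the channel, and TMIE, LHFPL5 and CIB2 are needed for its assembly or function. The tip link that pulls on the channel is made of cadherin 23 in its upper part and protocadherin 15 in its lower part. Harmonin (Ush1c) anchors the upper end of the link, whirlin (Whrn) organises stereocilia tips and ankle links, and clarin 1 (Clrn1) is a small membrane protein of the bundle and the synapse. In the mouse cochlea Tmc2 is expressed early and Tmc1 later, whereas vestibular hair cells keep both. Mutations of most of these genes cause deafness in mouse and human, and those of Cdh23, Pcdh15, Ush1c, Whrn and Clrn1 cause forms of Usher syndrome in human.

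TRα1 acts through DNA elements built from the half-site AGGTCA, so the promoters of the genes were searched for it on both strands over 250 bases before the start site (RefSeq, GRCm38.p6). Of the 10 genes 9 have a window in that table, Tmc2 being the one without. Of these 9, only the window of Tmc1 holds the half-site, with 1 match and 171 bases between it and the start, and none of the 9 holds the direct repeat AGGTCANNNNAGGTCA. The window of Pcdh15 (chr10:73821617-73821866, plus strand) lies well inside the gene span given below, so it precedes an internal start. The half-site stands in 14% of the 32851 windows of the table and the direct repeat in 0.0152%. The sequences of Tmc1 (chr19:20954203-20954452, minus strand) and of Cdh23 (chr10:60696491-60696740, minus strand) are given to show the match and, for comparison, the window of a tip link gene without one. Each is written along the strand of its gene, with the match in capitals, where it reads as the reverse complement of the half-site.
Tmc1: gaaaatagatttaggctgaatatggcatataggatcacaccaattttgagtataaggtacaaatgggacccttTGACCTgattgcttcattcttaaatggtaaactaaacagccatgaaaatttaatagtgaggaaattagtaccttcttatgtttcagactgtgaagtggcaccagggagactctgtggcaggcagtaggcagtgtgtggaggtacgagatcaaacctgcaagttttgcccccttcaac
Cdh23: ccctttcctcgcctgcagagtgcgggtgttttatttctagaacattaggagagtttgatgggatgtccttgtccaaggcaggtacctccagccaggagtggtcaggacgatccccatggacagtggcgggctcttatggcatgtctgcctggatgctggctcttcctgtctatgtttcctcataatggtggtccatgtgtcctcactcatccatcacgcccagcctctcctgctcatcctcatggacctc
A match of these letters is a description of the window and does not show binding.

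Depth was similar across libraries, with 19662433 to 23064578 counts in mutant and 18930841 to 22028397 in wild-type libraries, so that 3 counts corresponded to 0.132 to 0.159 CPM (counts scaled to library size). All 15 hair cell markers examined were detected and passed the filter, among them the transcription factor gene Pou4f3 at 7.13 ± 0.735 CPM in mutant and 7.55 ± 1.118 CPM in wild-type libraries (SD, n = 4 each). Summed over the list, hair cell markers ranged from 790 to 1003 CPM in mutant and from 955 to 1074 CPM in wild-type libraries, with 11 of the 15 lower by their fold change and 0 past the test. Calb2 weighed most in that sum, at 422 ± 65.5 CPM in mutant and 504 ± 83.3 CPM in wild-type libraries. Of the 4 with a positive fold change, Myo6 stood at 145 ± 9.24 and 132 ± 13.1 CPM in the same order. Markers of airway and middle ear epithelium were at 3.95 to 6.21 CPM in mutant and 188 to 634 CPM in wild-type libraries as a sum, with 8 of 8 fold changes negative and 4 past the threshold. Summed haemoglobin transcripts ranged from 7598 to 18746 CPM in mutant and from 12728 to 49123 CPM in wild-type libraries. Whether these sums reflect cell content, and what part that has in the values below, was not tested. In a whole organ, fewer cells of a type and less RNA per cell cannot be told apart.

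None of the 10 genes passed the test between mutant and wild-type ears, and their fitted log2 fold changes lay between -0.51 (Tmc2) and 0.20 (Tmie). A gene was called at a Benjamini-Hochberg adjusted p under 0.05 in edgeR's quasi-likelihood test over all 21392 genes, and 0 of the 10 passed, against 9 genes or 0.0421% over the whole table. By direction, 0 of the 10 were called higher, against 0.00467% of all genes, and 0 were called lower, against 0.0374%. The adjusted p was 0.966 for Tmie and 0.99999 for each of the other 9. At an unadjusted p under 0.05 the count was 0 of 10, against 5.30% of all genes, and DESeq2 and limma-voom also called 0 of the 10. The 4 mutant and 4 wild-type libraries overlapped for every one of the 10, whereas 2.69% of all genes tested showed no overlap. The fitted log2 fold change, mutant minus wild-type, was positive for 3 genes and negative for 7, with a median of -0.066, against -0.0061 over all genes tested.

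**Figure D1:**
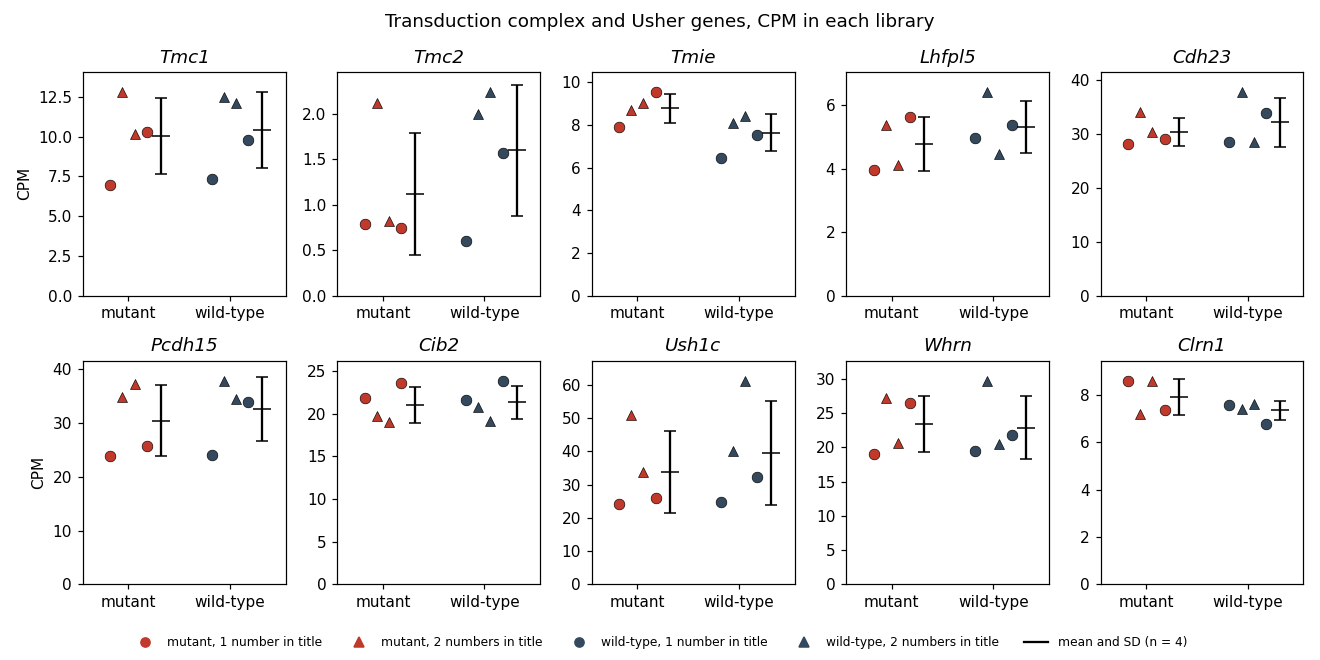
CPM of each of the 10 genes (y axis, from 0) in the 4 mutant and 4 wild-type libraries, with circles for libraries whose title holds 1 number, triangles for those with 2, and the mean and SD of each genotype (n = 4). The genotypes overlap in every panel, and Tmc2 in mutant libraries shows 1 point at 2.12 CPM above 3 points between 0.741 and 0.824 CPM.

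Of the channel genes, Tmc1 (chr19:20783458-20954202, minus strand) encodes the pore-forming subunit that predominates in the mature cochlea. Its level was 6.98, 12.8, 10.2 and 10.3 CPM in mutant replicates 1 to 4 and 7.34, 12.5, 12.1 and 9.75 CPM in wild-type replicates 1 to 4. In each genotype replicate 1 was the lowest and replicate 2 the highest, and the spread within a genotype exceeded the difference of the means. These were 10.1 ± 2.38 CPM in mutant and 10.4 ± 2.39 CPM in wild-type libraries (SD, n = 4 each), and the log2 fold change was -0.052 (SE 0.22, 95% interval -0.56 to 0.45). The sign turned without mutant replicate 1 (0.088), wild-type replicate 2 (0.046) or wild-type replicate 3 (0.028).

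Tmc2 (chr2:130195194-130264445, plus strand), the gene of the early cochlear and vestibular subunit, was the weakest of the set. It had 18, 46, 17 and 14 counts in mutant replicates 1 to 4 and 13, 38, 43 and 34 counts in wild-type replicates 1 to 4, or 0.790, 2.12, 0.824 and 0.741 CPM and 0.604, 2.0, 2.24 and 1.56 CPM in the same order. Mutant replicate 2 lay with the 3 higher wild-type libraries, and wild-type replicate 1 lay below all mutant libraries. Means were 1.118 ± 0.666 CPM in mutant and 1.60 ± 0.720 CPM in wild-type libraries (SD, n = 4 each), and the log2 fold change of -0.51 (SE 0.48) had a 95% interval from -1.61 to 0.59. That interval spans folds from 0.328 to 1.504, the widest of the 10 genes, and without mutant replicate 2 the log2 fold change was -1.02 (edgeR adjusted p = 0.627).

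The ratio of both channel genes was compared within each library, where the scaling of libraries has no part. Counts of Tmc1 exceeded those of Tmc2 in every library, 8.83, 6.04, 12.4 and 13.9 times in mutant replicates 1 to 4 and 12.2, 6.26, 5.42 and 6.24 times in wild-type replicates 1 to 4. These ratios are not scaled to exon length, which is 7.190 kb for Tmc1 and 3.216 kb for Tmc2, so they overstate the excess of Tmc1 per kb. Wild-type replicates 2, 3 and 4 and mutant replicate 2 sat at the low end, and wild-type replicate 1 sat among the higher mutant values. The log2 ratio was 3.16 ± 0.494 in mutant and 2.74 ± 0.455 in wild-type libraries (SD, n = 4 each), a difference of 0.42 that did not pass (two-sided exact permutation p = 0.229, and 0.457 adjusted over the 2 ratios tested). The smallest p that 4 against 4 libraries allow is 0.0286. In libraries whose titles hold 1 number the difference was 0.32, and where they hold 2 it was 0.52.

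Among the genes needed for channel assembly, Tmie (chr9:110865711-110880113, minus strand) had the smallest p of the set. It stood at 7.90, 8.69, 9.01 and 9.53 CPM in mutant replicates 1 to 4, against 6.46, 8.09, 8.43 and 7.54 CPM in wild-type replicates 1 to 4. The 3 highest values were mutant, while the lowest mutant library fell inside the wild-type range. Means were 8.78 ± 0.681 CPM in mutant and 7.63 ± 0.862 CPM in wild-type libraries (SD, n = 4 each). The fitted change on the log2 scale was 0.20 (SE 0.13, 95% interval -0.085 to 0.49, edgeR adjusted p = 0.966, unadjusted p = 0.145). The mean log2 difference was 0.31 where titles hold 1 number and 0.099 where they hold 2. Over 244 bases, 7.89% of its exon length, Tmie overlaps exons of Als2cl on the opposite strand, and reads there cannot be assigned, as no source used here says whether counting used strand. Als2cl had 246 to 442 counts per library and a log2 fold change of 0.13, which did not pass.

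Lhfpl5 (chr17:28575641-28585679, plus strand), whose protein joins protocadherin 15 to the channel, had 3.95, 5.38, 4.12 and 5.61 CPM in mutant replicates 1 to 4 and 4.97, 6.41, 4.47 and 5.38 CPM in wild-type replicates 1 to 4. The lowest library and the highest library belonged to different genotypes, and the ranges overlapped over most of their length. The log2 fold change was -0.16 (SE 0.18, 95% interval -0.56 to 0.25, n = 4 and 4). Cib2 (chr9:54544794-54560218, minus strand), encoding a calcium- and integrin-binding protein that is also expressed in many tissues outside the ear, was the steadiest of the assembly genes. Its values of 21.8, 19.7, 18.99 and 23.6 CPM in mutant replicates 1 to 4 and 21.5, 20.7, 19.1 and 23.8 CPM in wild-type replicates 1 to 4 nearly repeated each other. The log2 fold change was -0.020 (SE 0.10), and its 95% interval of -0.25 to 0.21 allows folds from 0.838 to 1.16. Cib2 shares 227 bases, 15.8% of its exon length, with Sh2d7 on the opposite strand. Sh2d7 had 0 counts in mutant replicate 4 and wild-type replicate 1 and 63 to 107 counts in the other libraries.

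The tip link cadherins had nearly equal counts in sum, 5186 for Cdh23 and 5190 for Pcdh15 over the 8 libraries. Cdh23 (chr10:60302748-60696490, minus strand) stood at 28.1, 34.1, 30.5 and 29.2 CPM in mutant replicates 1 to 4, against 28.6, 37.8, 28.5 and 34.0 CPM in wild-type replicates 1 to 4. Wild-type replicate 2 was the highest library, and the lowest library of each genotype differed by less than 1 CPM. The log2 fold change of Cdh23 was -0.080 (SE 0.11, 95% interval -0.34 to 0.18, n = 4 and 4). It was 0.0049 without wild-type replicate 2, the one omission among the 8 that turned its sign. Pcdh15 (chr10:73099342-74649737, plus strand) stood at 23.9, 34.7, 37.2 and 25.7 CPM in mutant replicates 1 to 4, against 24.1, 37.8, 34.5 and 33.9 CPM in wild-type replicates 1 to 4. It was low in replicate 1 of both genotypes and in mutant replicate 4 and lay between 33.9 and 37.8 CPM in the other libraries. Its log2 fold change was -0.10 (SE 0.18, 95% interval -0.51 to 0.31).

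The cadherin ratio differed more between libraries of 1 genotype than between the genotypes. Counts of Cdh23 over counts of Pcdh15 were 1.18, 0.983, 0.820 and 1.13 in mutant replicates 1 to 4 and 1.19, 1.001, 0.827 and 1.003 in wild-type replicates 1 to 4. Replicate 3 was the lowest and replicate 1 the highest in each genotype. The log2 ratio was 0.026 ± 0.236 in mutant and -0.0055 ± 0.213 in wild-type libraries (SD, n = 4 each), a difference of 0.032 (two-sided exact permutation p = 1). The numbers follow accession order, and by themselves they pair no libraries.

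Of the Usher genes of the anchor and the bundle, Ush1c (chr7:46195350-46238503, minus strand) varied most between libraries. Harmonin is a PDZ scaffold that is also made in the gut epithelium. Ush1c had 24.2, 51.0, 33.8 and 26.0 CPM in mutant replicates 1 to 4 and 24.9, 40.0, 61.1 and 32.2 CPM in wild-type replicates 1 to 4. The highest library exceeded the lowest 2.53-fold, and each genotype held low and high values. Means were 33.7 ± 12.2 CPM in mutant and 39.6 ± 15.6 CPM in wild-type libraries (SD, n = 4 each), and the log2 fold change of -0.23 (SE 0.32) had a 95% interval from -0.97 to 0.51. Without wild-type replicate 3 it was 0.060. Ush1c shares 120 bases with Gm9860 on the opposite strand, which is 3.12% of its exon length.

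Whrn (chr4:63414910-63495991, minus strand) stood at 19.1, 27.2, 20.6 and 26.5 CPM in mutant replicates 1 to 4, against 19.4, 29.7, 20.5 and 21.8 CPM in wild-type replicates 1 to 4. The ranges of the genotypes were almost the same. Its log2 fold change of 0.030 (SE 0.17, 95% interval -0.35 to 0.41) turned negative without mutant replicate 2 (-0.051), mutant replicate 4 (-0.037), wild-type replicate 1 (-0.031) or wild-type replicate 3 (-0.018). Clrn1 (chr3:58844028-58885340, minus strand) stood at 8.56, 7.17, 8.58 and 7.36 CPM in mutant replicates 1 to 4, against 7.57, 7.40, 7.59 and 6.76 CPM in wild-type replicates 1 to 4. Mutant replicates 1 and 3 were above all other libraries, and mutant replicates 2 and 4 were inside the wild-type range. The log2 fold change was 0.11 (SE 0.12, 95% interval -0.16 to 0.38).

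**Figure D2:**
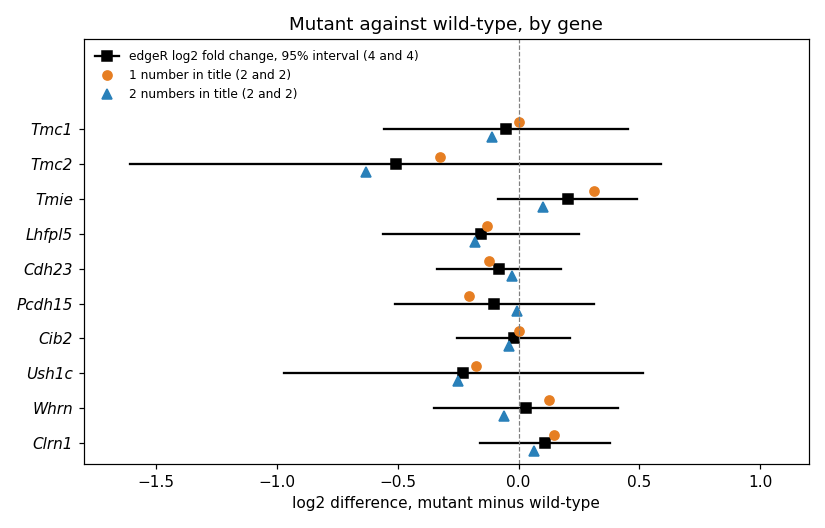
Log2 difference of mutant minus wild-type for each gene (x axis), as the edgeR log2 fold change with its 95% interval over 4 and 4 libraries (squares and lines) and as the mean difference of log2 CPM for titles with 1 number (circles, 2 and 2) or 2 numbers (triangles, 2 and 2). Every interval includes 0, from the narrow one of Cib2 (-0.25 to 0.21) to the wide one of Tmc2 (-1.61 to 0.59).

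The 95% intervals, which are not adjusted for the number of genes, give the range of changes that these libraries leave possible. The bounds for Cdh23 were folds of 0.792 and 1.13, and those for Clrn1 were 0.896 and 1.30. For Tmc1 the bounds were 0.680 and 1.37, and for Ush1c 0.510 and 1.43. The biological coefficient of variation, the spread between libraries beyond counting error as edgeR estimates it, was 14.2% for Cib2, 26.1% for Tmc1, 32.8% for Ush1c and 48.5% for Tmc2, against a median of 19.8% over all genes tested. For Tmc2 counting error adds to this, since its lowest library held 13 counts and thus a counting error of 27.7%.

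Levels were compared between genes as CPM per kb of merged exons (GENCODE M21). Cib2 was the highest at 14.8 ± 1.31 CPM per kb over all libraries and Ush1c followed at 9.52 ± 3.47 CPM per kb (SD, n = 8), with Cib2 above Ush1c in 7 of 8 libraries. Whrn (3.15 ± 0.554 CPM per kb) and Tmie (2.65 ± 0.306 CPM per kb) came next, and all 8 libraries had Ush1c above Whrn. Lhfpl5, Clrn1 and Cdh23 at 2.11 ± 0.346, 1.98 ± 0.166 and 1.85 ± 0.209 CPM per kb did not differ beyond their spread from one to the next. Lhfpl5 stood above Clrn1 in 5 of 8 libraries, and Clrn1 above Cdh23 in 5 of 8. Tmc1 (1.42 ± 0.308 CPM per kb) and Pcdh15 (1.32 ± 0.247 CPM per kb) were likewise close, with Tmc1 above in 5 of 8 libraries. Tmc2 was the lowest at 0.422 ± 0.215 CPM per kb, below Pcdh15 in all 8. Merged exons include those of rarely used isoforms, so genes with many isoforms, such as Pcdh15 with 23.773 kb, may have understated levels.

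**Figure D3:**
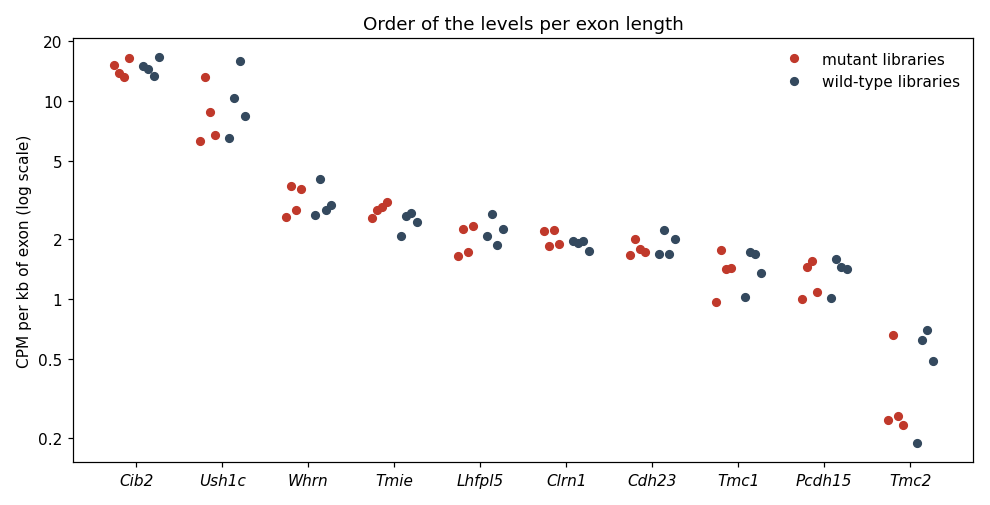
Level of each gene in CPM per kb of exon (y axis, log scale) in each mutant (left of each pair) and wild-type (right) library, with genes ordered by their mean. Cib2 lies between 13.3 and 16.6 CPM per kb and Tmc2 between 0.188 and 0.695 CPM per kb, and the genotypes overlap for every gene.

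Across the 8 libraries the 10 genes did not move as 1 block. On the log2 CPM scale the SD over libraries was 0.72 for Tmc2, 0.49 for Ush1c, 0.33 for Tmc1 and 0.28 for Pcdh15, whereas it was 0.13 for Cib2 and 0.12 for Clrn1. The first 4 were each below their mean in replicate 1 of both genotypes and above it in mutant replicate 2 and in wild-type replicates 2 and 3. Cib2 and Clrn1 did not show that order, and both were below their means in the same 3 libraries, Clrn1 only just in wild-type replicate 3 (-0.0014). The pair of members with the steadiest ratio was Lhfpl5 and Whrn (SD of the log2 ratio 0.13), followed by Lhfpl5 and Cdh23 (0.16), and the least steady pair was Tmc2 and Clrn1 (0.79).

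**Figure D4:**
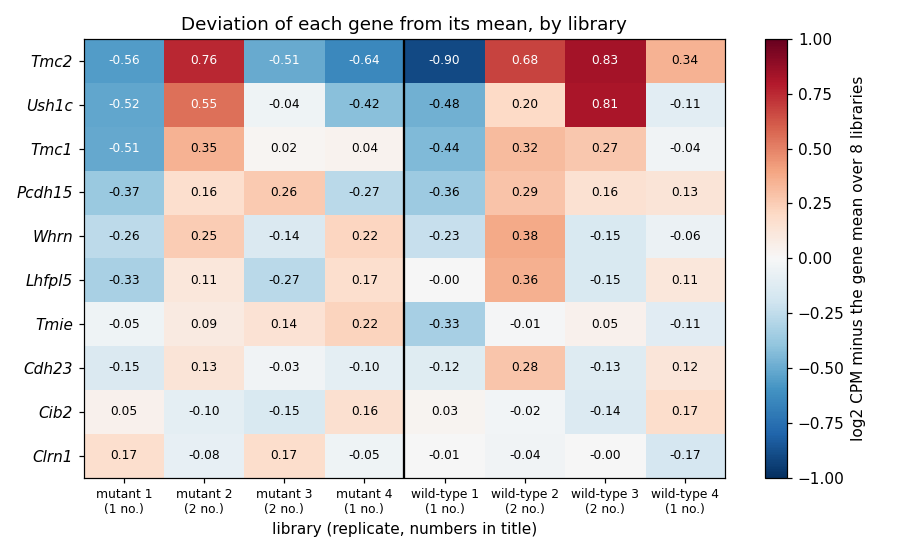
Deviation of log2 CPM from the mean of the gene over the 8 libraries (colour and printed value), with genes from the most to the least variable down the page and mutant libraries left of wild-type libraries. Tmc2 and Ush1c reach 0.76 and 0.55 in mutant replicate 2 and 0.83 and 0.81 in wild-type replicate 3, while Cib2 and Clrn1 deviate by at most 0.17.

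Replicates 2 and 3 of each genotype are the libraries whose titles hold 2 numbers, so the 3 high libraries are among them. The other one, mutant replicate 3, did not share the pattern for every gene, as it was below the mean for Tmc2 (-0.51) and near it for Ush1c (-0.04) and Tmc1 (0.02). Ush1c averaged 46.5 ± 12.1 CPM in the libraries with 2 numbers and 26.8 ± 3.68 CPM in those with 1 number (SD, n = 4 each). Title form (1 or 2 numbers) was fitted with genotype as a second term. By that fit 1 of the 10 genes passed, against 9.39% of all genes tested. The gene was Ush1c (log2 difference 0.79, SE 0.18, edgeR adjusted p = 0.0399). As the high libraries had been seen first, this is given as a description. What the numbers in the titles stand for is not given in the labels, and the cause of the order of the libraries was not tested.

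Several hair cell genes outside the set had a similar order of libraries. By the SD of the difference of log2 CPM over 8 libraries, the gene of the lists examined that was closest to Ush1c was Loxhd1, a stereocilia protein gene (0.25), which ranked 9 of 2388 candidate genes that vary as much as Ush1c. The closest to Tmc2 was Cib3 (0.52, rank 30 of 1257), whose protein is a vestibular partner of the channel in mouse, and the closest to Tmc1 was Myo3b (0.16, rank 31 of 5057), a stereocilia tip myosin gene. Grxcr1, a bundle protein gene, came closest to Whrn (0.095, rank 2 of 8098). Loxhd1 had 5.05, 14.0, 7.51 and 6.93 CPM in mutant replicates 1 to 4 and 4.04, 10.7, 15.4 and 7.82 CPM in wild-type replicates 1 to 4, with the same 3 libraries highest. The marker lists for types of hair cell were not uniform in this respect. Among outer hair cell markers, Slc26a5, Ocm and Lbh were lowest in replicate 2 of each genotype, whereas Ikzf2 was highest there in mutant libraries. Slc26a5, the outer hair cell motor gene, had 4.52, 1.98, 4.12 and 4.61 CPM in mutant replicates 1 to 4 and 3.20, 1.79, 3.75 and 2.90 CPM in wild-type replicates 1 to 4. Of the 4 vestibular markers, Kcna10 and Bdnf were highest in mutant replicate 2 and wild-type replicate 3 within their genotypes. Anxa4 and Spp1 did not show that order, with Anxa4 highest in replicate 3 of each genotype and Spp1 highest in mutant replicate 2 and wild-type replicate 4. The part of cell composition in this order was not tested.

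Over all genes with a mean of at least 1 CPM, the 5 whose pattern was most like that of Tmc1 were Chst9, Nkain3, Efcab7, Atp10d and Rbm47, with an SD of the difference of 0.071 to 0.12 against an SD of 0.33 for Tmc1 itself (8 libraries, 5057 candidates). For the mean profile of the 10 genes, with an SD of 0.20, they were Rbpms, Usp45, Zbtb48, Stx3 and Gm5141 at 0.054 to 0.075 (10310 candidates). With 8 libraries and so many candidates such closeness is a description of these libraries.

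Other genes of the transduction and Usher apparatus gave 0 calls among 19 tested of 20, with 7 positive and 12 negative log2 fold changes and a median of -0.053. The symbol Myo15a was not among the 47517 gene symbols, so it was not analysed here. The smallest p in that list was that of Tomt, which encodes a transmembrane methyltransferase-like protein needed to bring TMC1 and TMC2 to the bundle in mouse. It stood at 18.04, 21.1, 18.8 and 18.9 CPM in mutant replicates 1 to 4, against 21.4, 24.1, 21.8 and 24.6 CPM in wild-type replicates 1 to 4. All mutant libraries were below all wild-type libraries, though the change of -0.26 (SE 0.088, log2) did not pass (edgeR adjusted p = 0.907, unadjusted p = 0.0175). Tomt was the 1 gene of the 19 with an unadjusted p under 0.05, against 5.30% of all genes tested. Such a lack of overlap was seen for 2.69% of all genes tested. Myo7a, the Usher myosin gene, was next at 86.2 ± 4.55 CPM in mutant and 94.7 ± 9.96 CPM in wild-type libraries (SD, n = 4 each), with a log2 fold change of -0.14 (SE 0.089) and an edgeR adjusted p of 0.971.

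The other Tmc genes, whose products are not known as parts of the hair cell channel, also gave 0 calls among 6 tested, with a median log2 fold change of -0.20. Tmc8, which is expressed in lymphocytes, had 3.56, 3.63, 2.47 and 2.12 CPM in mutant replicates 1 to 4 and 4.04, 8.82, 3.33 and 6.30 CPM in wild-type replicates 1 to 4, with a log2 fold change of -0.93 and an SE of 0.33 (edgeR adjusted p = 0.911, unadjusted p = 0.0202). The genotypes overlapped, since wild-type replicate 3 lay below the 2 higher mutant libraries. Tmc6, also a gene of lymphocytes, had a log2 fold change of -0.27 (SE 0.13, edgeR adjusted p = 0.924). Of 15 paralogs and relatives of the other members 10 were tested and 0 called. The smallest p there belonged to Lhfpl2 (log2 fold change 0.30, SE 0.12, edgeR adjusted p = 0.924) and to Lhfpl1 (-0.47, SE 0.26, 0.930). Clrn2, the hair cell paralog of Clrn1, had 4 to 16 counts per library and was not tested.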

How the data were processed

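Counts per gene symbol were deposited by the authors for 8 libraries of whole inner ear RNA, as whole numbers that were not normalized. The submitters' processing notes name FastQC, STAR, HTSeq and the build mm10 with no version, and RNA was extracted with TRIzol and a silica column and made into libraries with molecular identifiers, per the labels' protocols. The annotation, the strand setting and any use of the identifiers are not given in these sources. The deposited counts were tested with edgeR 4.0.16 in R 4.3.3 (TMM normalization, default expression filter, robust quasi-likelihood, genotype as the only term), adjusted by Benjamini-Hochberg over all genes tested. Standard errors are the size of the log2 fold change divided by the root of F. DESeq2 1.42.0 and limma 3.58.1 (voom) were alternatives. Ratios used log2 CPM with a prior count of 2. Coordinates and exon lengths are from GENCODE M21 (GRCm38, the assembly of mm10). Floors and counting errors cover counting only.

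The members, context lists, marker lists, ratios and alternatives were chosen with earlier results of these data known. Named genes were all 10 members, the 2 tested genes of each context list with the smallest p, and the 5 genes closest in pattern to Tmc1 and to the members' mean. Genes of the lists closest to single members, the outer and vestibular hair cell markers and Clrn2 were named after their values were seen, and fits within title form were added then. Of the marker lists, 0 genes were called except 4 of airway epithelium. Median log2 fold changes were -0.14 for hair cells, -0.11 for outer hair cells, -0.35 for vestibular hair cells, 0.0026 for supporting cells, -0.031 for sensory neurons, -0.049 for central nervous tissue, -0.36 for skeletal muscle, -4.82 for airway epithelium and -0.94 for blood. Of the retina list 1 of 4 genes was tested (0.37).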

Additional observations from a re-analysis of the deposited data

Results flagged for a closer look

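Tmc2 in the mutant libraries contained 1 library far from the others. Mutant replicate 2 had 2.12 CPM, against 0.741 to 0.824 CPM in the other 3, and the gap took 0.940 of the range of the group, above the 95% critical value of 0.83 for 4 samples. The same library was the highest mutant library for Tmc1 (12.8 CPM) and Ush1c (51.0 CPM). Wild-type libraries of Tmc2 lay between 0.604 and 2.24 CPM without such a gap. Chance flags about 1 in 20 groups, and 24 groups of values were examined.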

How the results depend on the processing

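In all 22 alternative settings 0 of the 10 genes were called, and 205 of 220 fold changes kept their sign. Over all genes 9 were called, against 68 with DESeq2, 16 with limma-voom, 5 with title form as covariate and 6 to 14 with single libraries left out. Of the genes tested, 1071 had 0 counts in some libraries and at least 10 counts in all others, as Sh2d7 had. The 10 genes had 0 such cases, and 13 genes were called without these symbols. Within title forms, an alternative added after the data had been seen, 62 genes were called among libraries with 1 number and 10 among those with 2. With single libraries left out, log2 fold changes lay between -0.19 and 0.088 for Tmc1, -0.14 and 0.0049 for Cdh23, -0.080 and 0.038 for Cib2, -0.50 and 0.060 for Ush1c, -0.051 and 0.18 for Whrn, -1.02 and -0.31 for Tmc2, 0.14 and 0.25 for Tmie, -0.24 and -0.053 for Lhfpl5, -0.21 and -0.00076 for Pcdh15, and 0.071 and 0.16 for Clrn1, the last 5 keeping their sign. With 1 number in the title alone Tmc1 was at 0.018 and Cib2 at 0.0080, and with 2 numbers Whrn was at -0.072. The log2 ratio of Cdh23 to Pcdh15 differed by -0.058 to 0.14 with single libraries left out and by -0.019 among libraries with 2 numbers, and that of Tmc1 to Tmc2 by 0.27 to 0.65 with single libraries left out. The cause of these changes was not tested. With neighbouring title numbers as a replicate block, an assumed pairing, 29 genes and 0 of the 10 were called, and the smallest adjusted p among the 10 was 0.453 (Tmie, edgeR). Standard errors of all 10 were smaller with the block. The SE was 0.097 against 0.22 for Tmc1, 0.084 against 0.17 for Whrn and 0.37 against 0.48 for Tmc2, so intervals under that pairing would be narrower than those printed. The block left the ratio differences at 0.42 (exact sign-flip p = 0.5) and 0.032 (1). Deviations of same-numbered libraries correlated across genes at 0.14, 0.27, 0.20 and -0.036, and 2 of 4 mutant libraries correlated best with their own number, so the numbers were not taken to pair libraries. At 13 to 46 counts per library, depth limits Tmc2 most.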
